A study of Mus musculus with 8 samples.

Results

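The 31 genes described here serve glucose uptake, glycolysis, lactate handling, pyruvate entry into mitochondria and oxygen sensing, and were measured in sorted mouse hematopoietic stem cells. They were taken by symbol, from a list of the pathway, out of a table of 52224 genes, and all 31 had a row. All 31 also passed the filter on low values (1 or more in 4 or more of 8 libraries), as did 37414 genes in all. The cells came from bone marrow and were gated as CD48-, CD150+ cells of the LSK fraction, which is lineage-negative, Sca-1+ and Kit+. There were 4 libraries of the genotype DekTg and 4 of the genotype DekCon. The treatment entry of the labels repeats the genotype. The labels give no strain, age, sex, construct or promoter behind either name, and do not say whether each library is a mouse of its own. A p-value here is thus set by the spread between libraries, part of which may be technical. The series concerns the chromatin protein DEK, replication stress and stem cell function in Fanconi anemia. The comparison asks which transcripts differ between DekTg and DekCon stem cells.

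Glycolysis turns glucose into pyruvate in the cytosol and yields ATP without oxygen. Pyruvate is then either reduced to lactate or taken into mitochondria and oxidised by the pyruvate dehydrogenase complex, which the Pdk kinases switch off by phosphorylation. Hematopoietic stem cells of the adult marrow are known for their reliance on glycolysis. Hif1a encodes the oxygen-regulated subunit of the factor that induces many glycolytic genes and Pdk1 when oxygen is low, and Vhl marks that subunit for destruction when oxygen is present.

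Values are normalized read counts, which are reads divided by 1 scaling factor per library and not by gene length. Counted in units of 1000000, recovered reads numbered 2.64 to 3.59 per library in DekTg and 2.53 to 4.10 in DekCon. Dek, the gene behind the labels, was listed at 1862 to 2710 in DekTg and at 395 to 632 in DekCon (log2 fold change 2.23, limma adjusted p = 1.14e-06), but its 4 DekTg values are not whole numbers of reads. No such value occurs among the 31 genes. The transcripts of the sort markers Kit, Ly6a (Sca-1) and Slamf1 (CD150) were found in every library. Cd48 was found too, at 174 to 230 in DekTg and 128 to 259 in DekCon, although the gate selected against its protein. DekCon replicate 2 stood apart. Its summed level of 6 megakaryocyte markers was 9404, against 2014 to 4810 in the other libraries, and that of 8 proliferation genes was 6993, against 3217 to 4639. Lists of cell markers and of proliferation genes were also compared between the groups. Of 4 sort markers, 1 had an unadjusted limma p under 0.05 and 1 had groups apart with DekTg lower. Their log2 fold changes ran from -0.40 to 0.30. Of 6 stem cell markers these counts were 2 and 1, with fold changes from -0.47 to 0.68. The stem cell marker sums were 1412 to 1661 in DekTg and 1581 to 1867 in DekCon. The shares of all genes tested were 6.93% and 1.88%, and none of these markers passed the threshold. The sums of the megakaryocyte markers overlapped, at 2014 to 3350 in DekTg and 2625 to 9404 in DekCon. Those of the proliferation genes overlapped too, at 3217 to 4234 in DekTg and 3473 to 6993 in DekCon. All 6 megakaryocyte markers and all 8 proliferation genes had a fold change below 0, with medians of -0.80 and -0.28 and none past the threshold, and without DekCon replicate 2 these were 6 of 6 with a median of -0.46 and 7 of 8 with a median of -0.10. Of 10 erythroid markers 3 were higher in DekTg past the threshold (the globins Hba-a1, Hba-a2 and Hbb-bs), with sums of 688 to 826 in DekTg and 326 to 694 in DekCon, and of 10 B and plasma cell markers 2 were (Igkc and Jchain), with sums of 4958 to 5803 in DekTg and 936 to 1768 in DekCon. The median log2 fold change of the 10 erythroid markers was 0.87, and 2 of them had a fold change below 0. These were Epor at -1.06 and Klf1 at -0.89, and Tfrc was at 0.02, none of them past the threshold. Each gene of the marker and proliferation lists had a value above 0 in every library, except Cd3d of the T and NK cell markers. The part of these lists in the results was not tested. Libraries 1 and 4 of each group were closer to each other than any other pair of their group, at a chi-square per degree of freedom of 1.67 in DekTg and 1.58 in DekCon, against at least 3.62 for the other pairs.

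None of the 31 genes differed between DekTg and DekCon past the threshold, a limma p of 0.05 after Benjamini-Hochberg adjustment over the whole table. The background was 0.0347% of genes tested, or 13 of 37414. EdgeR's quasi-likelihood test, with 9 calls in the whole table, and DESeq2, with 16, made no call among the 31 either. At an unadjusted p under 0.05 there were 2 by each tool. By limma these were Hk2 and Slc2a3, both lower in DekTg, beside 6.93% of all genes tested in either direction and 3.78% lower. The same 2 genes were those with groups that did not overlap, beside 3.97% of all genes tested in either direction. Log2 fold changes, DekTg minus DekCon on the scale log2(value + 1), ran from -0.45 (Slc16a3) to 0.14 (Pgam1). The 95% interval excluded a 2-fold change in either direction for 30 of the 31, all but Slc16a3, and a 1.5-fold change for 22. The intervals are those of limma on log2(value + 1), and none was computed from edgeR or DESeq2. They are not adjusted for the number of genes. Leaving out a single library changed the sign of the log2 fold change in 16 of the 31 genes, and changed the sign or moved it by over 1.5 times in 26. The other 5 were Slc2a3, Hk2, Pfkp, Aldoa and Pdk2.

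The fold change was below 0 for 25 of the 31 genes, and the median log2 fold change was -0.10. Over all genes tested the share below 0 was 49.4% and the median was 0.01. The 31 genes are mostly well expressed, however, and among the 7602 genes of mean value at least 100 the share below 0 was 71% and the median was -0.10. That floor was chosen after the values were seen. With quantile normalization, which gives every library the same distribution of values, 16 of the 31 were below 0 and their median was -0.02, while the median of those 7602 genes became 0.00. In that setting 3 of the 31 had an unadjusted limma p under 0.05. They were Hk2, lower in DekTg, and Gapdh and Pgam1, higher in DekTg. Slc2a3 had an unadjusted limma p of 0.124, and none of the 31 passed the threshold. Fewer cells of a type and less RNA per cell cannot be told apart in these bulk libraries.

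**Figure D1:**
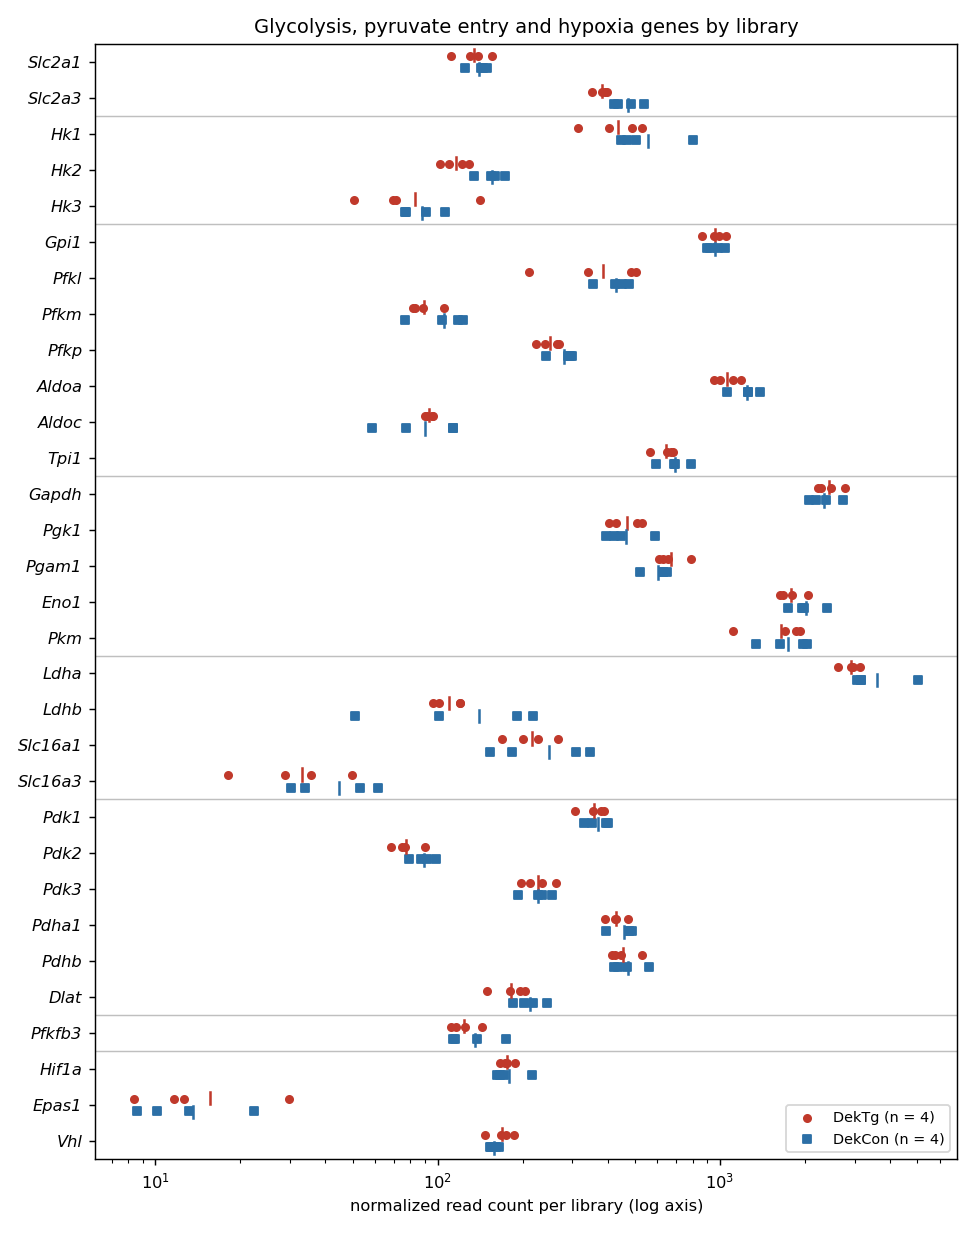
Normalized read counts (log axis) of the 31 genes, with a point per library, DekTg above DekCon in each row, and a vertical bar at each group mean. The groups are apart in Slc2a3 and Hk2, and DekCon replicate 2 is the highest Ldha point at 5040.

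Glucose enters the cells through facilitative transporters of the Slc2a family. Slc2a3 (GLUT3), a transporter of high affinity, had 352, 393, 382 and 398 normalized read counts in DekTg replicates 1 to 4, against 435, 540, 485 and 421 in DekCon replicates 1 to 4. All 4 DekTg libraries lay below all 4 DekCon libraries. The log2 fold change was -0.30 (SE 0.12, 95% interval -0.55 to -0.04), with a limma adjusted p of 0.711. Groups that did not overlap, with DekTg lower, made up 1.88% of all genes tested and 4.42% of genes of mean value at least 100. Slc2a1 (GLUT1), the more widespread transporter, averaged 134 ± 18.3 in DekTg and 140 ± 10.3 in DekCon (SD, n = 4 each), and the groups overlapped (log2 fold change -0.07, 95% interval -0.37 to 0.23).

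Hexokinases phosphorylate glucose and so hold it in the cell. Hk2, the inducible isozyme that binds mitochondria, had 110, 102, 129 and 122 in DekTg replicates 1 to 4, and 160, 135, 172 and 154 in DekCon replicates 1 to 4. As for Slc2a3, no DekTg library reached the lowest DekCon library. The log2 fold change was -0.42 (SE 0.14, 95% interval -0.72 to -0.13), with an unadjusted p of 0.00816, the smallest of the 31, and a limma adjusted p of 0.711. Leaving out 1 library gave Hk2 fold changes from -0.49 (without DekCon replicate 2) to -0.37 (without DekTg replicate 2). Those of Slc2a3 ran from -0.35 (without DekCon replicate 4) to -0.23 (without DekCon replicate 2). With quantile normalization neither Hk2 nor Slc2a3 had groups that were apart.

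Hk1, the housekeeping hexokinase, had 531, 315, 405 and 487 in DekTg and 505, 803, 446 and 468 in DekCon. The groups overlapped, and DekCon replicate 2 held the highest value. Its log2 fold change of -0.34 (95% interval -0.74 to 0.06, limma adjusted p = 0.749) was -0.15 without that library. Hk3, a hexokinase of myeloid cells, had a range of 50.4 to 142 in DekTg and 76.6 to 106 in DekCon. Its highest value, in DekTg replicate 3, stood beside the highest summed level of 10 neutrophil and macrophage markers, 18042, against 2853 to 10928 in the other libraries. In DekCon replicates 1 to 4 those sums were 4817, 10364, 10928 and 4846, and Hk3 was at 106, 76.6, 77.3 and 91.1. There the higher sums stood beside the lower Hk3 values. All 10 of those markers were above 0 in every library, and their part in the Hk3 values was not tested.

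The promoter of Hk2, the gene of smallest p, is printed with those of Ldha and Pgk1, which are textbook targets of the hypoxia factors. They are from RefSeq on GRCm38.p6, whose promoter table matched 29 of the 31 genes, each from 250 bases before to 50 after the start of the gene. Hk2 lies at chr6:82774405-82774704 on the minus strand, Ldha at chr7:46845554-46845853 on the plus strand and Pgk1 at chrX:106186850-106187149 on the plus strand. Capitals mark the cores of the hypoxia response element, ACGTG and GCGTG, searched on both strands.
Hk2: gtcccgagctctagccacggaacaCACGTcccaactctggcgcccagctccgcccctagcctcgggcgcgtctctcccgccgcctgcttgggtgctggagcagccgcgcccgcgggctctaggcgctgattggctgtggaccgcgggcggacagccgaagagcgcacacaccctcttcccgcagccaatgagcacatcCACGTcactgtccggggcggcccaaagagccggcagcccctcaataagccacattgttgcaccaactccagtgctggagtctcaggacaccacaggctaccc
Ldha: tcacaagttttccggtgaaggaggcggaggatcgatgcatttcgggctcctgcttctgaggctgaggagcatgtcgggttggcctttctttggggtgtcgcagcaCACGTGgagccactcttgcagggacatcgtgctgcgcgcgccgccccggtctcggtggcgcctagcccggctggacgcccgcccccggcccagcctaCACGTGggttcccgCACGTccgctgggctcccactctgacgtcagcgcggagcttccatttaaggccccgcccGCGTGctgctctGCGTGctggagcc
Pgk1: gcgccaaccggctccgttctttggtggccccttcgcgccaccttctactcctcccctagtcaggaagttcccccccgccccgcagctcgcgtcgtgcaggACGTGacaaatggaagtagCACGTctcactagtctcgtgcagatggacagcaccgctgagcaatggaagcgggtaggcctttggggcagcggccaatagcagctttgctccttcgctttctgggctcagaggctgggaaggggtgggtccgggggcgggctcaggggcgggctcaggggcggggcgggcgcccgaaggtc

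The core ACGTG occurred 2 times in the Hk2 window, 5 times in the Ldha window printed and 2 times in the Pgk1 window. Ldha has a further start in the table, whose window at chr7:46846832-46847131 is not printed and holds 0 ACGTG and 2 GCGTG. In the printed Ldha window 2 palindromes CACGTG, the E-box, hold the core on both strands and account for 4 of its 5 matches. At least 1 ACGTG was present in 22 of 43 promoters of the 29 genes matched, and in 19.6% of the 32851 promoters in the table. Some genes have several starts, and their windows can overlap and hold the same site. The promoters were not matched for base composition or level of expression, and enrichment was not tested. GCGTG was present in 22 of the 43 and in 32.4% of all. A match is a stretch of letters and not a measured binding site.

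In the steps from glucose 6-phosphate to triose phosphate, 6 of 7 genes had a fold change below 0, with Gpi1 at -0.003. By edgeR 5 of 7 were below 0, and with quantile normalization 4 of 7. None passed the test. Aldoa, the main aldolase, which splits fructose 1,6-bisphosphate, had 996, 954, 1186 and 1114 in DekTg and 1261, 1387, 1060 and 1262 in DekCon. The ranges overlapped through DekTg replicates 3 and 4 and DekCon replicate 3 (log2 fold change -0.22, 95% interval -0.49 to 0.04, limma adjusted p = 0.749). Gpi1, which interconverts glucose 6-phosphate and fructose 6-phosphate, averaged 962 ± 78.0 in DekTg and 963 ± 65.1 in DekCon (SD, n = 4 each), with an interval of -0.25 to 0.24. Triosephosphate isomerase, Tpi1, averaged 641 ± 51.5 in DekTg and 690 ± 78.0 in DekCon.

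Phosphofructokinase, the committed step of glycolysis, has liver, muscle and platelet subunits. Pfkl (liver) had 483, 210, 341 and 506 in DekTg and 477, 451, 356 and 426 in DekCon. DekTg replicate 2 was far below the rest, and without it the log2 fold change of -0.22 became 0.04. Pfkm (muscle) averaged 89.6 ± 10.8 in DekTg and 105 ± 20.8 in DekCon, and Pfkp (platelet) 249 ± 21.4 in DekTg and 281 ± 26.1 in DekCon (SD, n = 4 each). Pfkfb3, which makes the fructose 2,6-bisphosphate that activates phosphofructokinase, had 143, 112, 116 and 125 in DekTg and 175, 115, 113 and 137 in DekCon. Its groups overlapped, and its log2 fold change was -0.10 (95% interval -0.45 to 0.24, limma adjusted p = 0.916).

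The later steps of glycolysis, from glyceraldehyde 3-phosphate to pyruvate, were split in sign, with 2 of 5 genes below 0 (1 of 5 with quantile normalization, and 4 of 5 without DekTg replicate 3). Gapdh had 2219, 2277, 2780 and 2482 in DekTg and 2376, 2738, 2064 and 2190 in DekCon, ranges that almost coincide (log2 fold change 0.06, 95% interval -0.21 to 0.34, limma adjusted p = 0.941). Eno1, which makes phosphoenolpyruvate, had 1626, 1666, 2047 and 1798 in DekTg and 1945, 2394, 1746 and 1977 in DekCon. Its groups overlapped as well (log2 fold change -0.17, 95% interval -0.45 to 0.10, limma adjusted p = 0.812), and without DekCon replicate 2 the fold change was -0.09. The phosphoglycerate enzymes Pgk1, with a log2 fold change of 0.02, and Pgam1, with 0.14, lay on the other side of 0. That of Pgam1 was 0.06 without DekTg replicate 3 and 0.07 without DekCon replicate 3. Pkm, pyruvate kinase, averaged 1647 ± 368 in DekTg, where replicate 2 was lowest at 1114, and 1741 ± 320 in DekCon, where replicate 3 was lowest at 1342 (SD, n = 4 each).

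**Figure D2:**
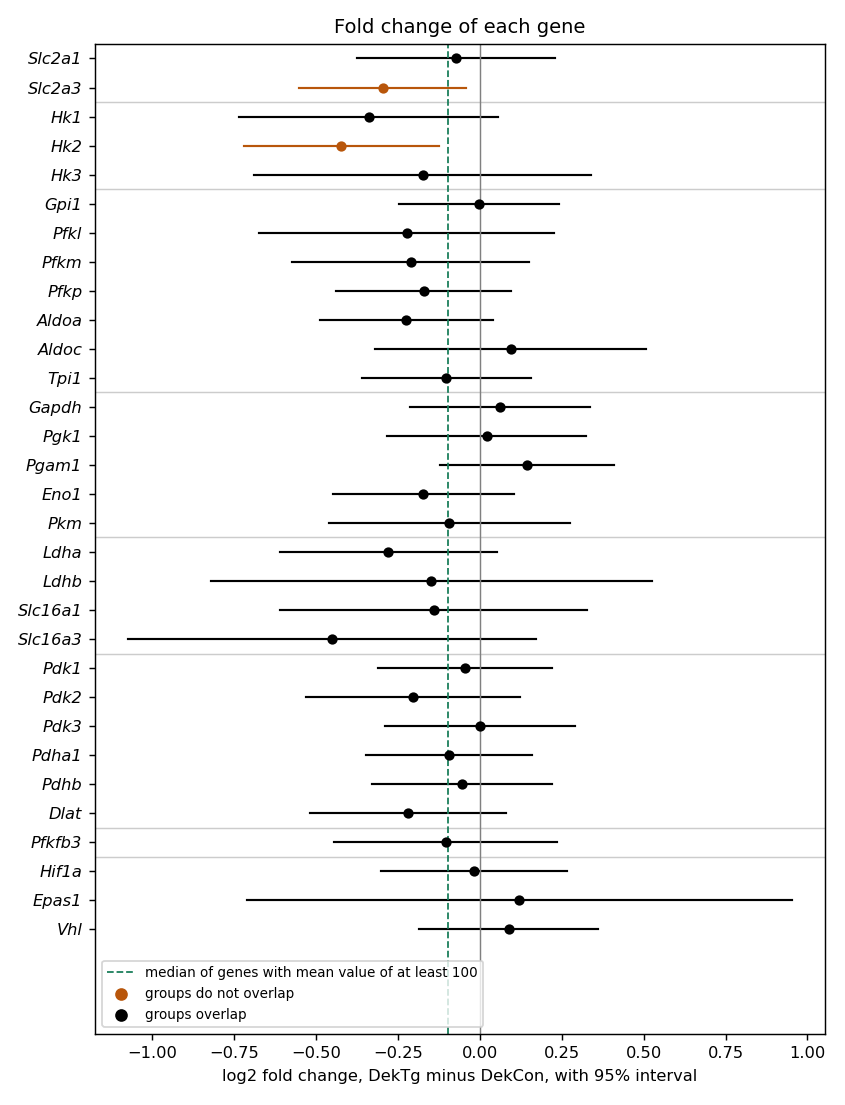
Log2 fold change of each gene (DekTg minus DekCon, limma) with its 95% interval, in the order of the pathway; the dashed line is the median of genes of mean value at least 100, at -0.10. The intervals of Hk2 and Slc2a3 lie below 0, and those of the other 29 genes hold 0.

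Lactate dehydrogenase A, which favours reduction of pyruvate to lactate, gave the most reads per length of the 31 genes, at 879 normalized reads per kilobase of merged exons in DekTg and 1089 in DekCon. Ldha had 2628, 2920, 3137 and 2950 normalized read counts in DekTg and 3149, 5040, 3168 and 3065 in DekCon. The groups met at DekTg replicate 3, which lay above DekCon replicate 4, and DekCon replicate 2 stood far above the rest. The log2 fold change was -0.28 (95% interval -0.61 to 0.05, limma adjusted p = 0.75), and -0.11 without DekCon replicate 2.

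Ldhb, the subunit that favours the reverse reaction, varied most within DekCon. Its counts were 120, 101, 120 and 96.6 in DekTg and 218, 50.7, 101 and 191 in DekCon. DekCon replicates 1 and 4 held the high values and replicate 2 the low one, while the 4 DekTg libraries lay between. Its log2 fold change of -0.15 had an interval of -0.82 to 0.52, and became -0.56 without DekCon replicate 2 and 0.13 without DekCon replicate 1. With all libraries it was -0.34 by edgeR and -0.35 by DESeq2.

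Lactate leaves and enters cells through monocarboxylate transporters. Slc16a1 (MCT1) averaged 216 ± 41.3 in DekTg and 248 ± 94.0 in DekCon. Slc16a3 (MCT4), the exporter of highly glycolytic cells, was low, at 33.0 ± 13.2 in DekTg and 44.6 ± 15.0 in DekCon (SD, n = 4 each). Its fold change is the lowest of the 31 at -0.45, and its interval of -1.07 to 0.17 holds a 2-fold lower level. That fold change was -0.20 without DekTg replicate 2 and -0.67 without DekTg replicate 3.

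All 6 genes of the pyruvate dehydrogenase step had a fold change below 0, with Pdk3 at -0.00011, beside 71% of genes of mean value at least 100. By edgeR and DESeq2 5 of 6 were below 0, and with quantile normalization only 2 of 6. None passed. The lowest fold change was that of Dlat at -0.22, which was -0.13 without DekTg replicate 3. Pdhb, the beta subunit of the first enzyme, had 414, 531, 445 and 423 in DekTg and 468, 562, 421 and 436 in DekCon, with overlapping groups (log2 fold change -0.06, 95% interval -0.33 to 0.22, limma adjusted p = 0.949). Dlat, the acetyltransferase core, had 196, 180, 149 and 204 in DekTg and 203, 244, 185 and 217 in DekCon, and here too the groups overlapped (-0.22, interval -0.52 to 0.08, adjusted p = 0.781). Pdha1, the alpha subunit that the Pdk kinases phosphorylate, averaged 429 ± 32.5 in DekTg and 459 ± 43.3 in DekCon (SD, n = 4 each). Among the kinases, Pdk1 averaged 358 ± 36.4 in DekTg and 369 ± 34.6 in DekCon, with an interval of -0.31 to 0.22. Pdk3 averaged 227 ± 28.6 in DekTg and 227 ± 26.0 in DekCon, and Pdk2 77.5 ± 9.19 in DekTg and 89.3 ± 8.28 in DekCon.

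The hypoxia factors did not differ past the threshold. Hif1a had 166, 177, 173 and 188 in DekTg and 162, 216, 166 and 172 in DekCon. Apart from DekCon replicate 2 these values are close together, and the log2 fold change was -0.02 (95% interval -0.30 to 0.26, limma adjusted p = 0.986). Vhl had 148, 168, 175 and 187 in DekTg and 165, 155, 154 and 161 in DekCon, with DekTg replicate 1 below all of DekCon and the other DekTg libraries above it (log2 fold change 0.09, 95% interval -0.18 to 0.36, limma adjusted p = 0.91). Its fold change was 0.15 without DekTg replicate 1 and 0.04 without DekTg replicate 4. Epas1, which encodes the related HIF-2 alpha, gave the fewest reads of the 31 genes, at 8.41 to 29.7 in DekTg and 8.61 to 22.4 in DekCon. Its log2 fold change of 0.12 was -0.23 without DekTg replicate 1. With all libraries it was 0.21 by edgeR and 0.20 by DESeq2. Hif1a is regulated largely through the stability of its protein, which was not measured here.

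The genes differed in how evenly they were measured. The coefficient of variation within a group had a median of 11.5% in DekTg and 12.5% in DekCon over the 31 genes. The extremes were 3.40% (Aldoc) and 61.4% (Epas1) in DekTg, and 3.33% (Vhl) and 55.6% (Ldhb) in DekCon. DekTg replicate 2 was the lowest of all 8 libraries in 15 of the 31 genes, and DekCon replicate 2 the highest in 13. In DekTg replicate 2 the low genes included Pfkl, Pkm, Hk1 and Slc16a3, while Slc16a1, Pdk3, Pdha1 and Pdhb were at their DekTg maximum. Without DekTg replicate 2, 20 of the 31 fold changes were below 0 and their median was -0.07. Without DekCon replicate 2, 22 were below 0 and the median was -0.11. Without DekCon replicate 3, which was the lowest DekCon library in 18 of the 31 genes, the median was -0.18.

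**Figure D3:**
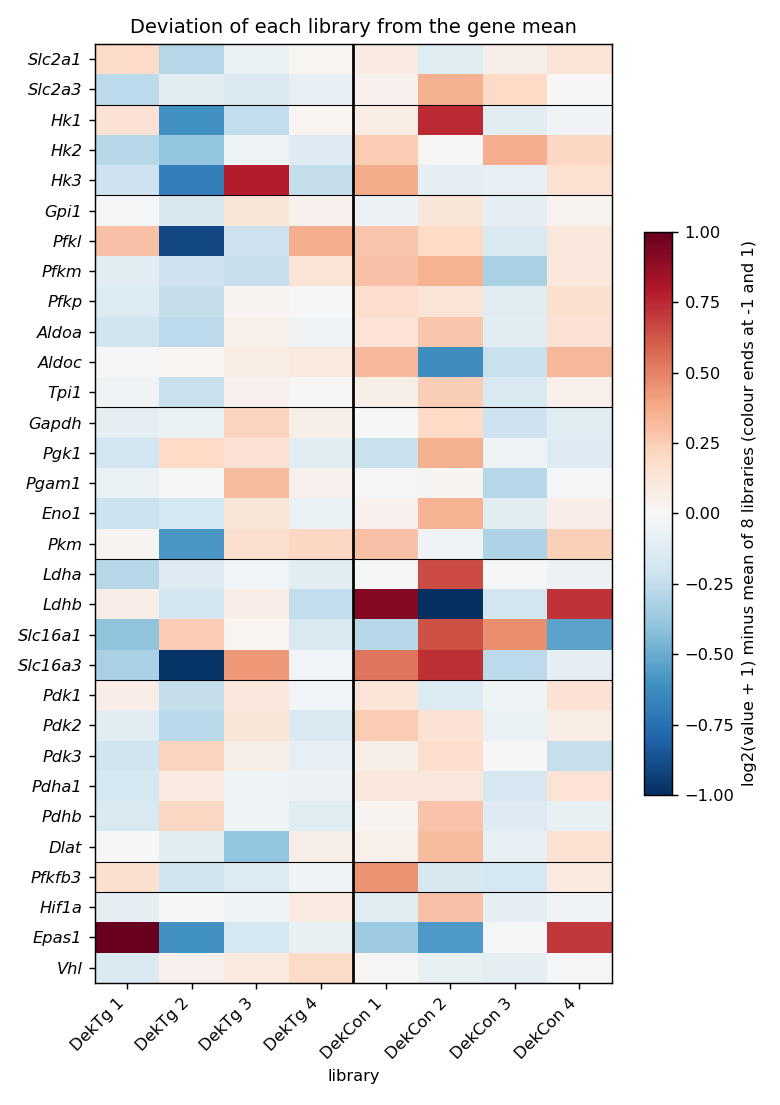
Deviation of each library from the mean of 8 libraries, gene by gene, on the scale log2(value + 1), with DekTg left of DekCon. DekTg replicate 2 is the lowest of 8 in 15 genes, and DekCon replicate 2 the highest of 8 in 13 genes; Ldhb and Epas1 show strong colours in both directions within a group.

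Where several genes encode the same activity, counts were divided by the length of merged exons (GENCODE M21, GRCm38) and each gene's share of its family was computed per library. Ldha made up 92.6 ± 1.04% of the lactate dehydrogenase level in DekTg and 91.8 ± 4.94% in DekCon (SD, n = 4 each), with the rest from Ldhb. Aldoa made up 90.9 ± 0.611% of the aldolase level in DekTg and 92.3 ± 2.21% in DekCon. The annotation holds 2 gene entries under the symbol Aldoa, and the length used merges the exons of both. In these families and in that of the monocarboxylate transporters, where Slc16a1 held 88.5 ± 4.33% in DekTg and 86.2 ± 4.999% in DekCon, a single gene gave most of the level.

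The other families were mixed. Among hexokinases, Hk1 held 55.0 ± 7.97% in DekTg and 55.8 ± 8.44% in DekCon, and Hk2 held 21.2 ± 2.92% in DekTg and 23.1 ± 4.94% in DekCon. The Hk2 share overlapped between groups, unlike the Hk2 count. Among phosphofructokinases, Pfkl held 54.5 ± 8.40% in DekTg and 55.1 ± 1.23% in DekCon. Among the Pdk kinases, Pdk3 held 55.6 ± 4.92% in DekTg and 53.8 ± 4.09% in DekCon, and Pdk1 held 29.0 ± 3.53% in DekTg and 29.0 ± 3.54% in DekCon. Slc2a3 held 58.0 ± 4.42% of the glucose transporter level in DekTg and 61.7 ± 4.32% in DekCon. No isozyme share separated the groups. Shares depend on the length used, and with the longest transcript in place of merged exons Hk1 held 68.4% in DekTg and 69.1% in DekCon.

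**Figure D4:**
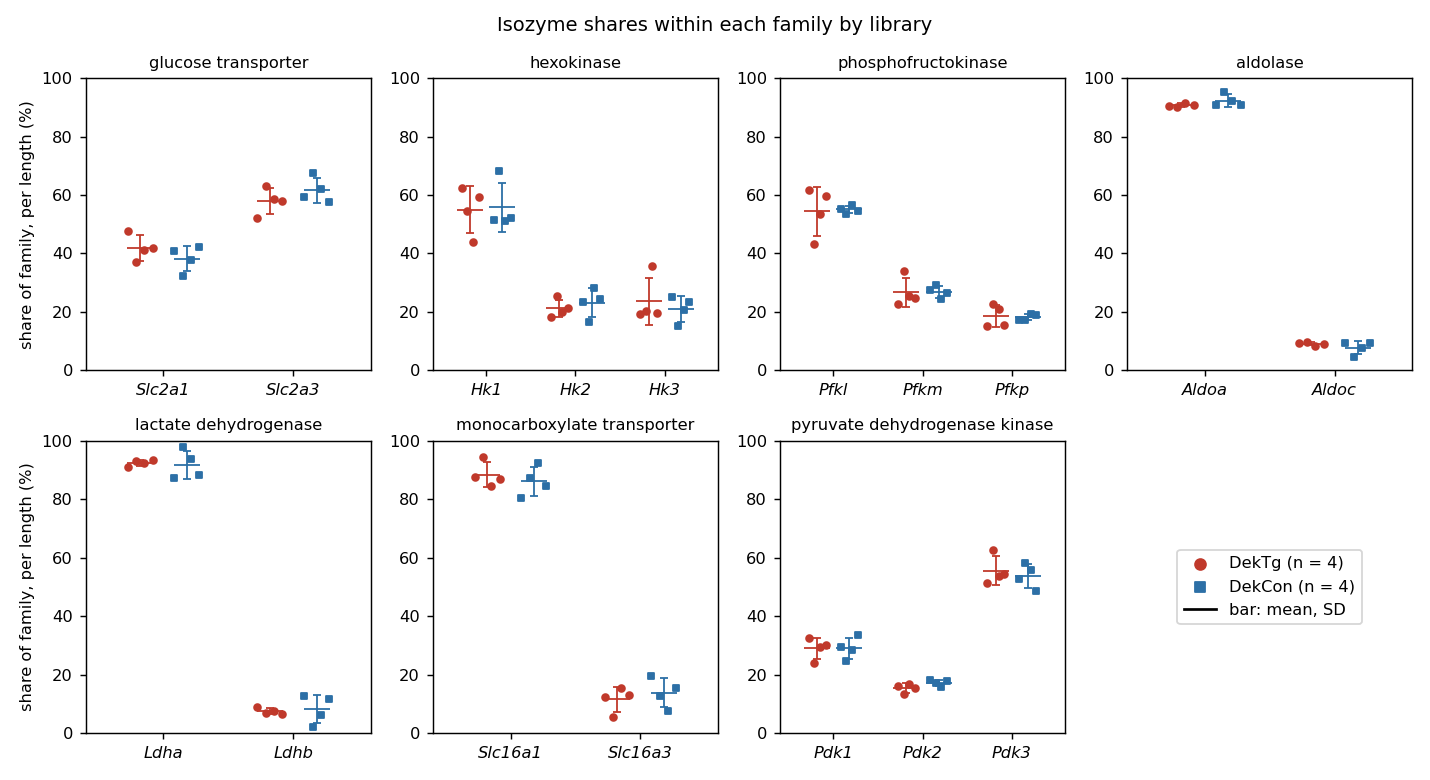
Share of each isozyme in the length-scaled level of its family, in percent, with a point per library and the mean and SD of each group, DekTg left of DekCon. The points of DekTg and DekCon overlap for all 17 genes, and Ldha, Aldoa and Slc16a1 lead their families.

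Of 115 other genes in 9 lists of related metabolism, 112 were tested and none passed the threshold by limma, edgeR or DESeq2. Of the 112, 14 had an unadjusted limma p under 0.05, beside 6.93% of all genes tested and 10.7% of those of mean value at least 100. The tricarboxylic acid cycle, which oxidises the acetyl group made from pyruvate, had all 16 genes below 0 and a median log2 fold change of -0.18, which were 11 of 16 and -0.07 with quantile normalization. Without DekCon replicate 2 they were 15 of 16 and -0.09. Malate dehydrogenase, Mdh2, was at -0.34 (limma adjusted p = 0.711). Of 7 genes of the pentose phosphate pathway, which branches off at glucose 6-phosphate, 5 were below 0 (4 with quantile normalization), with Tkt at -0.30 and Taldo1 at -0.16. In the glycogen and serine branches 8 of 12 were below 0 (6 with quantile normalization), and Shmt1 was at -0.33 and Shmt2 at -0.34.

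Other pyruvate entry genes held the gene of largest positive fold change in these lists. Pdk4, the kinase induced by fasting in other tissues, had 14.8, 21.6, 11.6 and 13.6 in DekTg and 7.61, 8.61, 10.4 and 6.95 in DekCon. All DekTg values lay above all DekCon values at this low level (log2 fold change 0.79, SE 0.32, limma adjusted p = 0.711), where 2.09% of all genes tested had groups apart with DekTg higher. Pdp2, a phosphatase that reactivates pyruvate dehydrogenase, was at -0.30. In this list 7 of 10 genes were below 0 (5 of 10 with quantile normalization).

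Among other glycolytic isozymes and regulators 10 of 21 genes tested were below 0. Basigin, Bsg, the partner that carries monocarboxylate transporters to the cell surface, was at -0.40 (limma adjusted p = 0.711). Bpgm, which makes the 2,3-bisphosphoglycerate of red cells, was at 0.39 (limma adjusted p = 0.711), with 117, 142, 140 and 96.6 in DekTg and 110, 92.8, 71.6 and 103 in DekCon. The erythroid marker sums of the same libraries were 813, 826, 688 and 816 in DekTg and 359, 694, 562 and 326 in DekCon. Within DekTg replicate 2 was the highest in both measures. Replicate 3 there had the lowest sum, 688, beside a Bpgm value of 140, and replicate 4 a sum of 816 beside the lowest Bpgm value, 96.6. Within DekCon the higher sums stood beside the lower Bpgm values. The part of these markers in the Bpgm values was not tested. Genes of near-identical sequence were low. Eno1b averaged 32.4 ± 10.1 in DekTg and 27.3 ± 11.2 in DekCon, and Aldoart2 36.4 ± 7.05 in DekTg and 29.5 ± 11.2 in DekCon (SD, n = 4 each). Pgk1-rs7 had no reads in any library. Reads of Eno1, Aldoa and Pgk1 can be shared with such copies, so their counts are uncertain to that extent.

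Oxygen sensing and other hypoxia targets showed no common sign. In the first list 6 of 11 genes were below 0, with Arnt, the partner of Hif1a, at 0.25 and Rbx1, part of the ligase that contains Vhl, at -0.29. In the second 7 of 20 were below 0 and the median was 0.02. This became 11 of 20 and -0.02 without DekTg replicate 2, and 11 of 20 and -0.05 without DekCon replicate 1. Cited2, which competes with Hif1a for its coactivator, was at -0.70 (limma adjusted p = 0.654), with 70.1, 63.7, 39.8 and 51.4 in DekTg and 79.9, 102, 94.2 and 85.7 in DekCon, so that the groups were apart. Anln, an actin-binding protein of cell division, was at -0.42.

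Of 12 regulators of growth and metabolism, 10 were below 0 (8 with quantile normalization) and 5 had an unadjusted p under 0.05, beside 6.93% of all genes tested and 10.7% of those of mean value at least 100, again with none past the threshold. Mycn was at -0.78 (limma adjusted p = 0.707), with 316, 171, 242 and 362 in DekTg and 422, 747, 351 and 370 in DekCon, ranges that overlap narrowly. Myc, which induces glycolytic genes, had 928, 890, 698 and 912 in DekTg and 1014, 1354, 983 and 979 in DekCon (log2 fold change -0.33, limma adjusted p = 0.711), and its groups were apart. Groups apart with DekTg lower made up 1.88% of all genes tested and 4.42% of those of mean value at least 100. The 5 genes were Meis1, Myc, Mlx, Mycn and Stk11. With quantile normalization their unadjusted limma p was 0.11, 0.13, 0.0864, 0.0096 and 0.0448, in that order. Txnip, higher in DekTg, had 0.017 in that setting. The highest Myc and Mycn values were both in DekCon replicate 2.

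**Figure D5:**
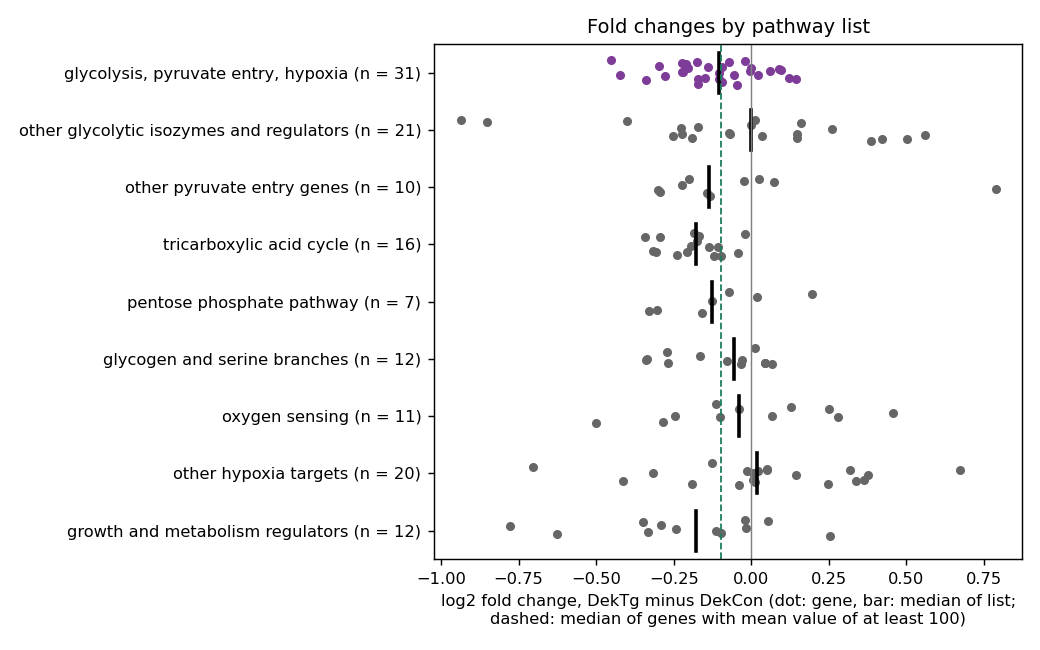
Log2 fold change (DekTg minus DekCon) of each gene tested, by list, with a bar at the median of the list and a dashed line at the median of genes of mean value at least 100. The tricarboxylic acid cycle list lies wholly below 0 with a median of -0.18, and the hypoxia target list is centred at 0.02.

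The labels name neither the strand setting nor the annotation used for counting, so reads in exons shared with other genes cannot be assigned securely. In GENCODE M21 the longest such stretches were 767 bases of Pkm shared with Gm49759, 748 of Pfkp with Pitrm1, 741 of Gpi1 with Gm26762 and 603 of Pdha1 with Map3k15. Hk2 and Slc2a3 shared none. Hk2 lies on chromosome 6 from 82725025 to 82774454 and Slc2a3 on the same chromosome from 122727809 to 122801640, both on the minus strand.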

How the data were processed

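The deposited table holds 1 signal value per gene for each of 4 DekTg and 4 DekCon libraries. RNA was amplified by Geo-seq and tagmented, per the labels' protocols. The tools named in the submitters' processing notes are DESeq2, HTSeq, Cufflinks 2.1.1 and Bowtie 0.12.9, with build mm10; their roles and the annotation are not given there. The table's name says FPKM, but 99.994% of the deposited values are whole multiples of 1 step per library (tolerance 0.001 reads). The reciprocal steps equal DESeq2 size factors within a relative gap of 4.41e-05, so the values were read as counts divided by a size factor. The 25 other values lie in 6 genes, Dek among them and none of the 31.

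Limma 3.58.1 (R 4.3.3) with a trend was fitted to log2(value + 1) of 37414 genes, two-sided, after a test on simulated data. The pseudocount of 1 makes fold changes of low genes too small. EdgeR 4.0.16 and DESeq2 1.42.0 were run on the recovered reads without those 6 genes. Other pseudocounts, filters, scalings, library weights, a block and leaving out each library were alternatives. Amplified reads without molecular identifiers are not independent molecules, so depth covers counting error only.

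The genes and lists were chosen with earlier results of these data known. Values in every library are given for genes with an unadjusted p under 0.05 or groups apart, and for the most abundant gene and the gene of smallest p of each role. Each related list gives its 2 genes of smallest p, except for 1 gene that is not reported here. Other single values, such as those of Pfkl and Ldhb, and all 8 values of Pdk4, Bpgm, Cited2, Myc and Mycn, were chosen after they were seen.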

Additional observations from a re-analysis of the deposited data

Results flagged for a closer look

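In 5 of the 62 groups of 4 libraries (31 genes in DekTg and in DekCon), 1 library was farther from the others than Dixon's 95% critical value allows. Chance flags about 5% of groups. All 5 were DekCon libraries. DekCon replicate 2 was high in Ldha, at 5040 against 3065 to 3168 in the other DekCon libraries, and in Hk1, at 803 against 446 to 505. DekCon replicate 3 was low in Pfkp, at 242 against 289 to 298, in Pgam1, at 519 against 626 to 647, and in Pdha1, at 394 against 477 to 486.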

How the results depend on the processing

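No gene of the 31 passed the threshold under any of the 22 alternatives run, and the smallest adjusted p was 0.43 (Hk2, limma with library weights). Of 264 values of the 12 genes given in every library, 257 kept their direction and 7 reversed. Quantile normalization left 16 genes below 0 against 25, left 0 with groups apart against 2, and reversed Pdhb to 0.076 and Hif1a to 0.069 (log2); the cause was not tested. Leaving out 1 library gave ranges that cross 0 for Gapdh (-0.0032 to 0.14), Pdhb (-0.13 to 0.032), Pfkfb3 (-0.18 to 0.027) and Hif1a (-0.063 to 0.074). It gave 2 to 6 genes with groups apart, a count that fewer libraries can only keep or raise: 5 without DekTg replicate 3, beside 6.83% of all genes tested, and 6 without DekCon replicate 3, beside 9.04%. Over all genes tested, between 13 and 22 passed, with 22 without DekTg replicate 2. There were 4 without the trend, and 8 without the 6 genes that hold values not whole, an alternative chosen after seeing the data.

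Samples with the same number were not shown to be paired: their deviations correlated at 0.07, 0.02, 0.06 and 0.14 over 11653 genes. The replicate block gave 15 genes in the whole table and 0 of the 31. Across numbers the correlations ran from -0.25 (DekTg replicate 4 with DekCon replicate 3) to 0.27 (DekTg replicate 2 with DekCon replicate 3). Replicates 1 and 4 had the lowest neutrophil and macrophage marker sums of each group, at 2932 and 2853 in DekTg and 4817 and 4846 in DekCon. A split of replicates 1 and 4 from 2 and 3 was not tested. With libraries 1 and 4 of each group averaged, 12 genes passed, 0 of them among the 31, and 23 of the 31 were below 0. With the longest transcript as length, shares (percent, DekTg then DekCon) were 68.4 and 69.1 for Hk1, 14.4 and 15.7 for Hk2, 19.8 and 19.7 for Pfkm, 95.3 and 96.1 for Aldoa, 4.67 and 3.92 for Aldoc, and 32.8 and 32.7 for Pdk1. They were 94.998 and 94.4 for Ldha, 5.0018 and 5.595 for Ldhb, 17.2 and 15.1 for Hk3, 61.8 and 62.5 for Pfkl, 16.4 and 18.2 for Pdk2, and 50.8 and 49.1 for Pdk3.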
